A study of Mus musculus with 6 samples.

Results

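The proteasome is the protease that degrades ubiquitin-tagged proteins. Its subunits and assembly factors were followed in libraries labelled as mouse liver, as the genes whose symbol begins with Psma, Psmb, Psmc, Psmd, Psme, Psmf or Psmg and then a digit. Of the 22564 protein-coding genes of the deposited table, 50 met this rule. They comprise 8 genes for alpha subunits of the core, 11 for beta subunits, 6 for ATPases of the regulatory particle, 11 for its lid and other non-ATPase subunits, 6 for activators and an inhibitor, and 7 for assembly factors. The remaining gene, Psmc3ip, meets the rule by name only, since it encodes a meiotic recombination factor, and it was listed at 0 in all 6 libraries.

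The groups were 3 control libraries and 3 libraries from mice given tunicamycin, an inhibitor of N-linked glycosylation that loads the endoplasmic reticulum (ER) with unfolded glycoproteins. All were labelled male C57BL/6 mice aged 10 weeks, and those of the treated group were injected intraperitoneally with 0.2 mg/kg each day over 14 days. The sources used here do not say what the controls were given or whether each library came from a separate mouse. The p-values therefore rest on the spread between libraries, which may be partly technical. In limma, the main test, this was the spread of genes at a like level, and a gene's own spread had no weight. RNA was depleted of ribosomal RNA and sequenced in stranded, paired-end libraries. Levels are given as FPKM, which is meant to divide fragments by transcript length and library total. Here FPKM and reads were often not in fixed proportion for the same gene, as given below. Comparisons between genes or libraries in FPKM are uncertain for this reason.

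The core particle is a barrel of stacked rings. Alpha subunits form the outer rings and gate the entrance, and beta subunits form the inner rings, of which Psmb5, Psmb6 and Psmb7 carry the protease activity. The regulatory particle caps the barrel. Its ATPases (Psmc genes) unfold the substrate, its lid removes ubiquitin chains, and further subunits bind ubiquitin. In hepatocytes, as in other cells, proteins that fail to fold in the ER are moved to the cytosol and degraded by this machine, which is the step that ties it to ER stress. When proteasome activity falls, the transcription factor Nfe2l1, itself made at the ER and N-glycosylated, drives proteasome genes together.

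Several facts of the libraries bear on every value below. Whole reads recovered from the deposited count columns numbered 541022 to 661145 per library, and 3046 to 5482 genes per library were above 0. Defining liver markers were largely at 0: of 10 hepatocyte genes, 7 were at 0 in all 6 libraries (Ttr, Apoa1, Apoh, Ahsg, Serpina1a, Cps1 and Cyp2e1). The summed FPKM of the 10 was 220.2 to 492 in control libraries and 114 to 143 with tunicamycin, ranges that did not overlap. This sum came from Alb and Hnf4a, with Tat at 3.25 FPKM in tunicamycin 1. Alb lay at 231, 300 and 213 FPKM in control libraries and 133, 96.3 and 127 with tunicamycin (limma adjusted p = 0.852). Such a lack of overlap was found for 5.74% of all genes tested. Hnf4a overlapped between groups and was high in control 1 alone, at 262 FPKM. All measured markers of Kupffer cells (4), endothelium (5), T and NK cells (4), B cells (3) and neutrophils (4) were at 0 throughout, and 3 of 5 stellate cell genes were. In the 5 genes of cholangiocytes and other epithelia, Spp1 alone was at 0 throughout, and the sum was 139 to 195 FPKM in control libraries and 124 to 209 FPKM with tunicamycin. All 4 genes of dividing cells were detected, with sums of 169 to 474 and 53.8 to 584 FPKM. The part of these markers in the results below was not tested. In such samples, fewer cells of a type and less RNA per cell cannot be told apart.

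Detection over the 6 libraries came first. Of the 50, 9 (18%) were listed at 0 throughout, against 13826 of 22564 genes in all (61.3%). Psma7, Psmd1, Psmd2 and Psmd8 (4 of 50, 8%) were detected in each library, against 1124 of all genes (4.98%). Those at 0 were Psma3, Psma8, Psmb8, Psmb9, Psmb11, Psmd10, Psmg1, Psmg3 and Psmc3ip. Each of the 17 ATPase and non-ATPase subunits of the regulatory particle was above 0 in at least 1 library, as were 13 of the 14 constitutive core subunits. The exception, Psma3, an alpha subunit, has 3 annotated pseudogenes with at least 95% identity over 300 bases or more, the closest of them 100% identical over the aligned part. Reads can be split between or lost to such copies, so its 0 is uncertain.

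Detection within a library was patchy. Proteasome genes above 0 numbered 20, 23 and 27 of 50 in controls 1 to 3 and 35, 22 and 20 in treated libraries 1 to 3. Tunicamycin 1 thus held the most, and it was also the library with the most detected genes of any kind (5482). Of the 41 genes above 0 anywhere, 7 were above 0 in 1 library, 1 in 2 libraries, 10 in 3, 11 in 4, 8 in 5 and 4 in all 6. The mean number above 0 was 23.3 ± 3.51 in control libraries and 25.7 ± 8.14 with tunicamycin (SD, n = 3 each), a gap smaller than the spread between libraries.

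**Figure D1:**
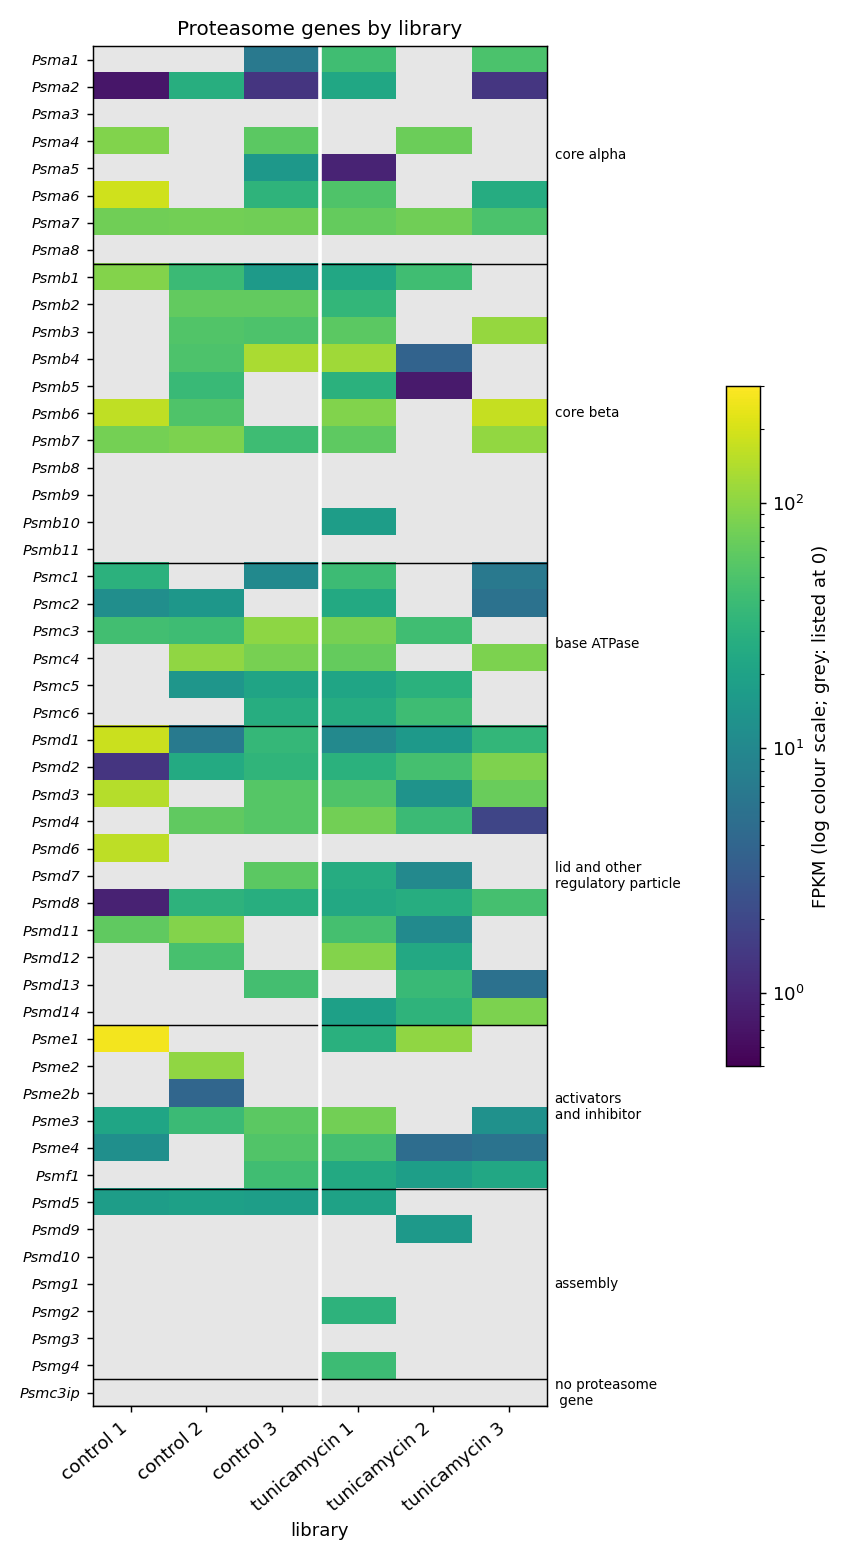
FPKM of each of the 50 proteasome genes (rows, grouped by subcomplex) in each of the 6 libraries (columns), on a log colour scale, with genes listed at 0 in grey. Psma7 is present at a like level in all 6 libraries, Psmd14 is present in the 3 tunicamycin libraries and in no control, and 36 of the 40 tested genes have a grey cell in at least 1 library.

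The proteasome genes together took 0.488%, 0.304% and 0.333% of the reads in controls 1 to 3 and 0.413%, 0.298% and 0.276% in treated libraries 1 to 3. The 95% Wilson intervals lay between 0.470% and 0.507% for control 1, the highest library, and between 0.263% and 0.289% for tunicamycin 3, the lowest. These intervals cover counting error only. The spread within each group was wider than they allow, and the group means of 0.375 ± 0.0989% and 0.329 ± 0.0737% (SD, n = 3 each) lay within 1 SD of each other. In FPKM, the summed level of the 50 genes was 1642, 1089 and 1219 in control libraries and 1521, 705 and 979 with tunicamycin. The groups overlapped.

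Reads gathered around 1 value per library. Over all genes that value, the most frequent read number, was 139.6, 46.2 and 53.7 in controls 1 to 3 and 40.3, 68.4 and 70.8 in treated libraries 1 to 3. Of the proteasome genes with reads, 9 of 20, 12 of 23 and 12 of 27 in the controls and 15 of 35, 14 of 22 and 9 of 20 with tunicamycin lay within 1.5-fold of that number. Gaps between replicates were frequent in both groups. In controls, 18 of 27 proteasome genes with at least 50 reads in 1 library had none in another (66.7%, against 66.1% over all genes), and with tunicamycin 22 of 31 did (71.0%, against 60.4%). With a floor of 3 reads, counting error alone would allow a gene without reads up to 0.000454% to 0.000555% of its library. This floor does not cover the gaps between replicates, so the level of such a gene may be higher.

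**Figure D2:**
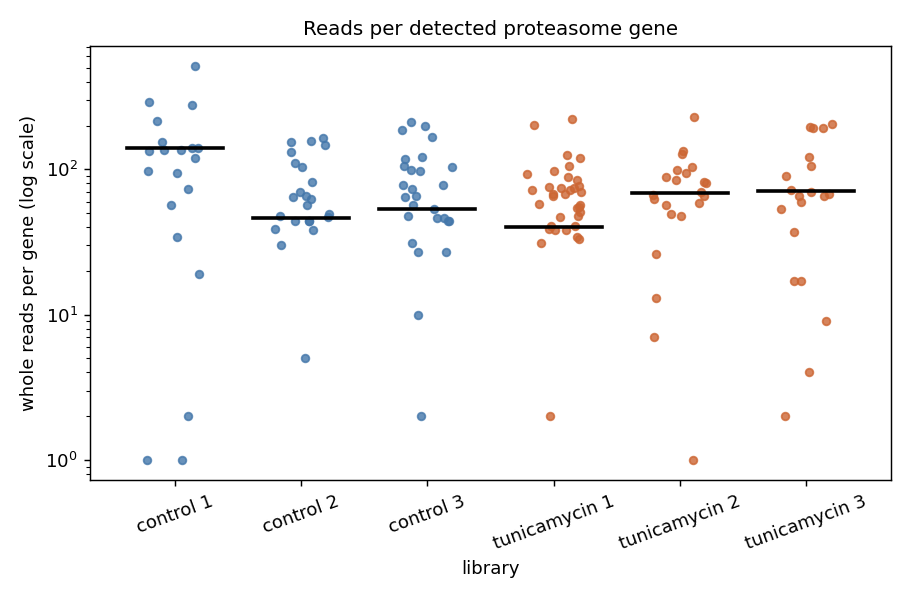
Whole reads of each proteasome gene with at least 1 read (points, log axis) in each library, with the most frequent read number over all genes of that library as a black line. In control 1, 9 of 20 points lie within 1.5-fold of its line at 139.6 reads, and in control 2, 12 of 23 lie so near its line at 46.2.

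The design asks which of these genes differ between tunicamycin and control. None passed. Of the 41 proteasome genes above 0, 40 reached the mean FPKM of 1 needed for testing (Psme2b did not), and 0 of these 40 passed a Benjamini-Hochberg adjusted p of 0.05 in limma, fitted over 7696 genes, of which 0.065% passed (0.052% higher and 0.013% lower). At an unadjusted limma p under 0.05 there was 1, Psmd14 (3.09% over all genes). edgeR and DESeq2 on whole reads also called 0 of the 40, with 0.039% and 0.442% of all genes called. DESeq2 gave no adjusted p for 11 of the 40 and 3411 of the 7696 genes, so these could not be called by it. Each method had 1 of the 40 at an unadjusted p under 0.05, again Psmd14 (1.49% and 5.8% of all genes). Log2 fold changes (tunicamycin minus control, from log2(FPKM + 1) values, which understates low genes) were positive for 21 and negative for 19 of the 40, with a median of 0.22, against 52.1% positive and a median of 0.10 over all genes tested. On reads the median of the 40 was 0.12 in edgeR and -0.05 in DESeq2, and on FPKM it was -0.08 without control 1 and -0.64 without tunicamycin 1. The 2 groups did not overlap in FPKM for 2 of the 40 genes, 1 higher and 1 lower, a share near the 5.74% of all genes tested (3.03% higher, 2.72% lower).

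The gene with the smallest p was Psmd14, the metalloprotease of the lid that cuts ubiquitin chains from substrates. It was listed at 0 in all 3 controls and lay at 19.0, 32.3 and 85.5 FPKM with tunicamycin. Its reads numbered 0, 0 and 0 in control libraries and 51, 80 and 90 with tunicamycin, so that the groups did not overlap in either unit. Against a floor of 3 reads over the 3 controls, its share of reads was at least 74.5-fold higher with tunicamycin, a bound for counting error only. The log2 fold change was 5.27 (SE 2.03; limma unadjusted p = 0.00933, adjusted p = 0.852). With no control read, Psmd14 reached the FPKM needed for testing through treated libraries alone. This fixed the sign of its fold change, so the sign is not evidence of a rise. The adjusted p was 0.642 in edgeR and 0.0702 in DESeq2, and over all alternatives it lay between 0.0702 and 0.906. The most frequent read numbers per gene in those libraries were 40.3, 68.4 and 70.8. Psmd14 lies on chromosome 2 at 61711694 to 61800376, plus strand (mm10, GENCODE M21).

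The other gene whose groups did not overlap was Psma7, an alpha subunit of the gate ring and the most even of the 4 genes above 0 in all 6 libraries. It lay at 75.7, 76.6 and 74.11 FPKM in control libraries and 65.6, 74.10 and 49.3 with tunicamycin. Control 3 and tunicamycin 2 were thus nearly equal. Means were 75.5 ± 1.24 and 63.0 ± 12.6 FPKM (SD, n = 3 each; log2 fold change -0.28, SE 1.15, from limma with adjusted p = 0.985). In reads the groups overlapped, with 98, 48 and 105 in control libraries and 97, 99 and 70 with tunicamycin, and the read-based log2 fold change was positive (0.25 in edgeR, 0.11 in DESeq2). Psma7 lies on chromosome 2 at 180036374 to 180042433, minus strand, on the same build.

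Promoters of these 2 genes are shown because their libraries separated, and those of Psmb5 and Psmb6 because both are catalytic subunits and hold the antioxidant response element (ARE), to which Nfe2l1 binds. Each is the 250 bases before the transcription start, 5′ to 3′ on the gene's strand, from RefSeq on GRCm38.p6, with matches to the ARE letters TGACNNNGC on either strand in capitals. The windows are chr2:61711444-61711693 (plus strand) for Psmd14, chr2:180042465-180042714 (minus strand) for Psma7, chr14:54617996-54618245 (minus strand) for Psmb5 and chr11:70525107-70525356 (plus strand) for Psmb6.
Psmd14: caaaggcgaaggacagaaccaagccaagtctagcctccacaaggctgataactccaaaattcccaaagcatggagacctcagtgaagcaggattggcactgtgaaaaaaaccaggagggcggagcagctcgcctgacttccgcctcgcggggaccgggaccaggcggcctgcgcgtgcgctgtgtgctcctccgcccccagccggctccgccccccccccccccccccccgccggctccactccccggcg
Psma7: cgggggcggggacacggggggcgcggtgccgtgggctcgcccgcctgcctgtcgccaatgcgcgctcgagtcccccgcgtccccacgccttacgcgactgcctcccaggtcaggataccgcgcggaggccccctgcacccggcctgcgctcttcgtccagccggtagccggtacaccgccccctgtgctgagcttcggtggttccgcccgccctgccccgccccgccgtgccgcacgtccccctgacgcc
Psmb5: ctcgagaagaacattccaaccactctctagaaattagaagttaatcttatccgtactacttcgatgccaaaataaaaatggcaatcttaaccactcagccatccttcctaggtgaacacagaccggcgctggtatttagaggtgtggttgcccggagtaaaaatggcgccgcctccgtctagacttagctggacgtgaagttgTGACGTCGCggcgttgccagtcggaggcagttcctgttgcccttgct
Psmb6: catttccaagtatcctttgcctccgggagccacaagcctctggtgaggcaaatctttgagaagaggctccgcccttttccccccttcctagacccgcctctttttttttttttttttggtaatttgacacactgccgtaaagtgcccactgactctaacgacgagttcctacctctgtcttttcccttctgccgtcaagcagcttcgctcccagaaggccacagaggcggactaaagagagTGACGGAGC
The ARE begins 47 bases before the start in Psmb5 and 9 bases before it in Psmb6. The letters were not found in the windows of Psmd14 and Psma7. Of 45 promoter windows matched to 42 of the genes, 5 held the ARE (11.1%), those of Psmb5, Psmb6, Psmc6, Psmd9 and Psmd12, against 10.2% of 32851 windows of the same length over all genes. The ER stress element, CCAAT and CCACG with any 9 bases between them on either strand, was found in 0 of the 45 and in 0.113% of all windows. CCAAT, which is also the start of that element, was found in 33.3% and 33.8%. A match describes letters and is not a bound site.

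The alpha subunits of the core had no gene that passed. Of the 6 tested, log2 fold changes were above 0 for 1 and below 0 for 5 (median -0.53, and 0.10 without tunicamycin 2). Psma6 lay at 191, 0 and 31.8 FPKM in control libraries and 52.1, 0 and 26.4 with tunicamycin, and was missing from 1 library of each group. Psma1 lay at 0, 0 and 6.63 FPKM in control libraries and 42.5, 0 and 48.5 with tunicamycin (log2 fold change 2.71, SE 2.05, from limma with adjusted p = 0.852), with 10 reads in control libraries and 146 with tunicamycin. Its groups overlapped, because tunicamycin 2 was at 0 like controls 1 and 2. Psma4 lay at 88.9, 0 and 60.4 and then at 0, 71.4 and 0 FPKM. Psma2 held 1, 39 and 2 reads in control libraries and 34, 0 and 2 with tunicamycin, and Psma5 held 31 reads in control 3 and 2 in tunicamycin 1. Psma8, the alpha subunit of the testis, was at 0 throughout. The summed alpha level was 356, 104 and 189 FPKM in control libraries and 183, 146 and 126 with tunicamycin, with a ratio of means of 0.70 that became 1.03 without control 1.

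The catalytic beta subunits were detected unevenly. Psmb5, the chymotrypsin-like subunit, lay at 0, 38.2 and 0 FPKM in control libraries and 29.7, 0.794 and 0 with tunicamycin. Psmb6, the caspase-like subunit, lay at 163, 51.3 and 0 FPKM in control libraries and 89.3, 0 and 170.3 with tunicamycin. Psmb7, the trypsin-like subunit, lay at 78.4, 85.8 and 41.0 FPKM in control libraries and 60.9, 0 and 105.7 with tunicamycin. All 3 were thus high in tunicamycin 1 and at or near 0 in tunicamycin 2, and control and treated ranges overlapped for each. Their log2 fold changes were 0.16 (SE 2.03), 0.28 (SE 1.63) and -1.82 (SE 1.44), with limma adjusted p of 0.999, 0.996 and 0.852. Psmb5 also has a pseudogene copy at 98.9% identity.

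The structural beta subunits overlapped between groups as well. Psmb1 held reads in 5 libraries, at 92.5, 39.1 and 16.3 FPKM in control libraries and 22.9, 41.7 and 0 with tunicamycin. Psmb4 lay at 0, 50.3 and 134 FPKM and then at 120.5, 3.84 and 0. Psmb2 lay at 0, 64.3 and 64.7 and then at 34.7, 0 and 0 FPKM, and Psmb3 at 0, 52.4 and 50.6 and then at 59.6, 0 and 109 FPKM. Of the 8 beta genes tested, log2 fold changes were above 0 for 4 and below 0 for 4 (median -0.51, and above 0 without control 2, at 0.24, or without tunicamycin 2, at 0.50). The summed beta level was 334, 381 and 307 FPKM in control libraries and 435, 46.3 and 385 with tunicamycin. Tunicamycin 2 stood apart from the other 5 libraries, and without it the ratio of means was 1.2 instead of 0.85.

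Subunits of the immunoproteasome, which interferon induces to replace the catalytic beta subunits and which shape peptides for antigen presentation, were scarcely detected. Psmb8 and Psmb9 were at 0 in all 6 libraries, as was Psmb11, the catalytic subunit of the thymus. Psmb10 held 38 reads in tunicamycin 1 (17.6 FPKM) and none elsewhere. The deposited loci of Psmb8, Psmb9 and Psmb10 were 4.98, 2.64 and 11.7 times as long as the annotated genes, so their values are uncertain. The partner genes were also incomplete: of 10, 5 were at 0 throughout, among them Tap1 and Tap2, the peptide transporter, H2-K1, a class I heavy chain, and the regulator Nlrc5. B2m, the light chain of class I molecules, lay at 0, 155 and 122 FPKM in control libraries and 254, 5.65 and 60.1 with tunicamycin. H2-D1, the other class I heavy chain of the list, lay at 0, 46.0 and 0 FPKM in control libraries and 118, 41.0 and 159.98 with tunicamycin, with 164 and 883 reads in all. Its groups overlapped (log2 fold change 4.69, SE 1.71, from limma with unadjusted p = 0.00625, the smallest of the partners, and adjusted p = 0.852). Tapbp, which links class I molecules to the transporter, lay at 489, 17.1 and 9.04 FPKM and then at 16, 12.8 and 0. None of the 5 tested partners passed in limma. Markers of T, NK and B cells and neutrophils were at 0 in the same libraries, as given above.

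ATPases of the regulatory particle unfold substrates and open the gate. Of the 6 genes, log2 fold changes were above 0 for 2 and below 0 for 4 (median -0.08), and none passed. The median was above 0 with median-of-ratios scaling (0.02), in edgeR (0.62) and in DESeq2 (0.42), and without control 2 (0.77), control 3 (0.55) or tunicamycin 2 (0.96). Psmc3 lay at 43.6, 41.3 and 100.9 FPKM in control libraries and 81.8, 42.2 and 0 with tunicamycin. Its reads were 19, 82 and 48 and then 126, 95 and 0, so that FPKM and reads differed in direction (log2 fold change -1.92 on FPKM and 0.65 in edgeR). Psmc4 lay at 0, 103 and 80.8 FPKM in control libraries and 66.8, 0 and 85.0 with tunicamycin. Psmc1, Psmc2, Psmc5 and Psmc6 stayed at or under 41.3 FPKM in every library and were each at 0 in at least 1 library of each group. The summed ATPase level was 86.2, 174 and 240.0 FPKM in control libraries and 261, 113 and 97.3 with tunicamycin. Low and high libraries thus occurred in both groups.

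The lid and the other non-ATPase subunits were the most completely detected group. Psmd1, Psmd2 and Psmd8 were above 0 in all 6 libraries. Psmd1, a scaffold of the regulatory particle, lay at 179, 6.99 and 35.8 FPKM in control libraries and 10.2, 15.8 and 34.7 with tunicamycin (log2 fold change -0.99, SE 1.56, from limma with adjusted p = 0.887). Its control mean rested on control 1, and without that library the log2 fold change was 0.14. Psmd2, the other large scaffold, lay at 1.36, 25.0 and 33.1 FPKM in control libraries and 29.6, 45.3 and 86.8 with tunicamycin, with a mean of 19.8 ± 16.5 against 53.9 ± 29.5 FPKM (SD, n = 3 each; log2 fold change 1.97, SE 1.58, from limma with adjusted p = 0.852). Tunicamycin 1 lay below control 3, so the groups overlapped. Psmd8, a lid subunit, lay at 0.932, 31.2 and 27.6 FPKM in control libraries and 23.9, 26.8 and 45.6 with tunicamycin. Both had 1 or 2 reads in control 1, and without it the log2 fold change of Psmd2 was 0.75 instead of 1.97 and that of Psmd8 0.07 instead of 1.39.

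Other lid genes varied from library to library. Psmd3 lay at 148, 0 and 55.2 FPKM in control libraries and 52.1, 13.4 and 69.9 with tunicamycin. Its log2 fold change was positive (0.90) although its treated mean was lower (45.2 ± 28.9 against 67.7 ± 74.7 FPKM, SD, n = 3 each), since the log scale gives weight to the 0 of control 2. Psmd6 held 133 reads in control 1 (159 FPKM) and none in the other 5 libraries. Psmd4, a receptor for ubiquitin chains, lay at 0, 62.6 and 55.4 FPKM in control libraries and 77.1, 39.1 and 1.92 with tunicamycin. Psmd7, Psmd11, Psmd12 and Psmd13 were each at 0 in 1 or 2 controls and in 1 treated library. Of the 11 genes, log2 fold changes were above 0 for 8 and below 0 for 3 (median 0.83), and on reads the median was -0.50 in edgeR and -0.46 in DESeq2. The summed level was 550, 265 and 311 FPKM in control libraries and 374, 256 and 330 with tunicamycin, with overlapping groups.

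**Figure D3:**
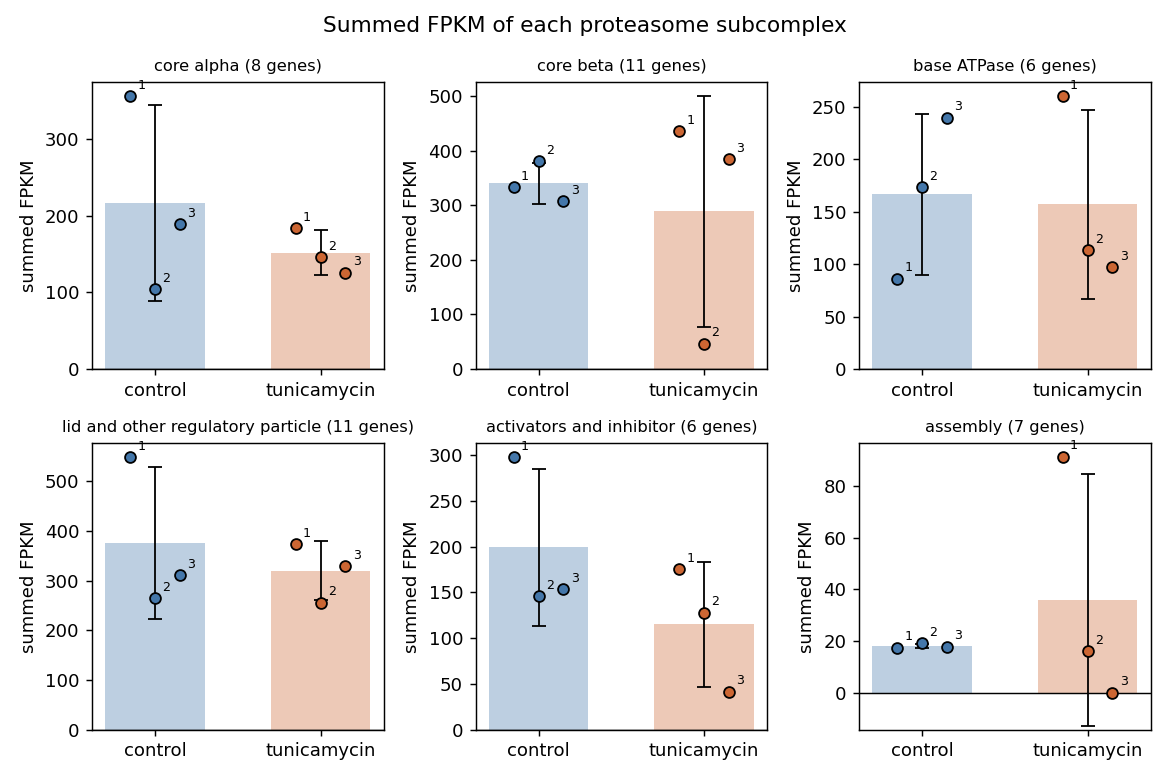
Summed FPKM of the genes of each subcomplex in each library (points, numbered by replicate), with the group mean (bar) and SD (error bar), n = 3 per group. The groups overlap in all 6 panels; tunicamycin 2 is low in the core beta panel at 46.3 FPKM and control 1 is high in the core alpha panel at 356 FPKM.

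Core and regulatory particle genes were present in like amounts in 5 of the 6 libraries. The summed level of the 14 constitutive core subunits divided by that of the 17 regulatory particle subunits was 1.09, 1.11 and 0.90 in controls 1 to 3 and 0.95, 0.52 and 1.2 in treated libraries 1 to 3. Tunicamycin 2, with 5 of the 14 core genes above 0, was the low one. Subunits that sit in the barrel in equal numbers did not have equal levels within a library. Among core genes above 0, the highest was 258-fold the lowest in control 1, 3.12-fold in control 2, 99.2-fold in control 3 and 126, 93.3 and 124-fold in treated libraries 1 to 3. The lowest values were those of genes with 1 or 2 reads in every library except control 2.

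Activators and the inhibitor showed no gene that passed. Of the 5 tested, log2 fold changes were above 0 for 3 and below 0 for 2 (median 0.46, against -0.02 in edgeR and -0.21 in DESeq2). The median was below 0 without control 2 (-0.63), control 3 (-0.15), tunicamycin 1 (-0.49) or tunicamycin 2 (-0.20). Psme1 and Psme2 form the interferon-induced activator ring that opens the core. Psme1 lay at 265, 0 and 0 FPKM in control libraries and 29.3, 105 and 0 with tunicamycin, and Psme2 lay at 103 FPKM in control 2 and at 0 in the other 5 libraries. No library held both. Psme2b held 5 reads in control 2 and none elsewhere. Psme3, an activator of the nucleus, lay at 21.5, 39.0 and 59.2 FPKM in control libraries and 77.7, 0 and 12.7 with tunicamycin (log2 fold change -1.88, SE 1.69, from limma with adjusted p = 0.852). Psme4, the large activator linked to histone degradation, held 135, 0 and 103 reads in control libraries and 66, 57 and 68 reads in treated ones, while its FPKM in the 5 libraries above 0 ran from 4.98 to 52.5. Psmf1, known as an inhibitor of the core in vitro, lay at 0, 0 and 41.9 FPKM in control libraries and 24.4, 18.2 and 23.2 with tunicamycin. It was detected in all 3 treated libraries, at levels under that of control 3 (log2 fold change 2.70, SE 1.95, from limma with adjusted p = 0.852).

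Assembly factors were the least detected group. The chaperones of the core, Psmg1 to Psmg4, held reads in tunicamycin 1 alone, Psmg2 with 54 reads (31.0 FPKM) and Psmg4 with 31 reads (40.4 FPKM), while Psmg1 and Psmg3 were at 0 throughout. Psmd9, a chaperone of the ATPase ring, held 70 reads in tunicamycin 2 (15.9 FPKM), and Psmd10, another, was at 0 throughout. Psmd5, the third chaperone of that ring, lay at 17.4, 19.1 and 17.8 FPKM in control libraries and 19.9, 0 and 0 with tunicamycin. Its reads were 57, 65 and 64 and then 72, 0 and 0. The 3 controls and tunicamycin 1 were thus alike and the other 2 treated libraries had none. The mean level was 18.1 ± 0.843 FPKM in control libraries and 6.64 ± 11.5 with tunicamycin (SD, n = 3 each; log2 fold change -2.79, SE 2.00, limma unadjusted p = 0.162, adjusted p = 0.852). Of the 4 assembly genes tested, 3 had a positive log2 fold change (median 1.51). Those 3 had no control read. They reached the FPKM needed for testing through a treated library alone, which fixed their sign. With them at the bound that 3 reads over the group give, the median was 3.79. Over all 7696 genes tested, 2124 were at such a bound, in either direction. Each of those 3 assembly genes had reads in 1 library alone, and without tunicamycin 1 the median of the assembly genes was -1.11.

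**Figure D4:**
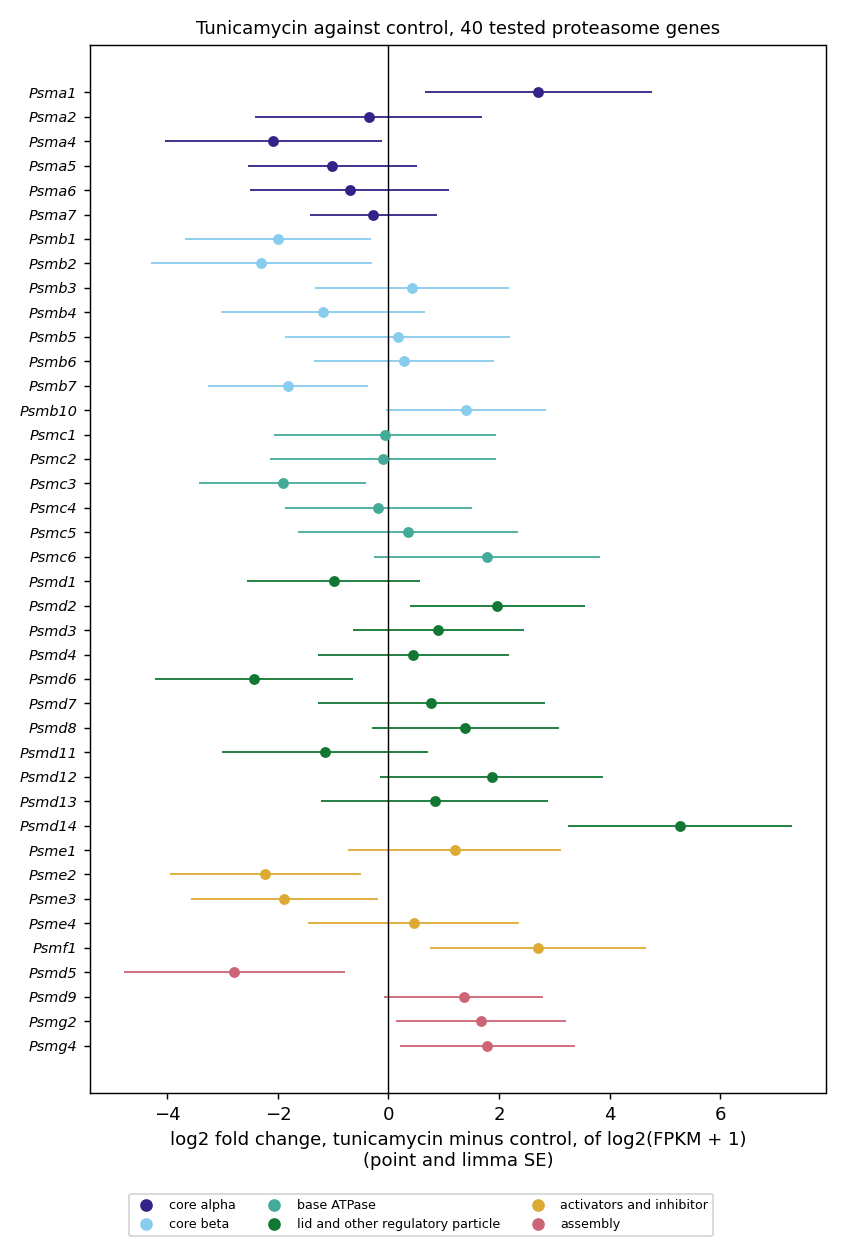
Log2 fold change of the 40 tested proteasome genes, as tunicamycin minus control of log2(FPKM + 1), with the limma SE, coloured by subcomplex. Psmd14 is the point farthest from 0 at 5.27, and 21 points lie above and 19 below 0.

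The proteasome's partners were described from a list of names, of which 30 were in the table. All but Ddi2 had reads in at least 1 library, and 9 had them throughout. Of 29 tested, log2 fold changes were above 0 for 19 (65.5%) and below 0 for 10, with a median of 0.81. Over all genes tested, 52.1% were positive and the median was 0.10. A shift of this list against all genes was not tested. In limma 1 of the 29 passed, against 0.065% of all genes: Usp14, a deubiquitinase that docks on the regulatory particle. It lay at 7.23, 7.10 and 1.11 FPKM in control libraries and 368, 519.7 and 727 with tunicamycin (log2 fold change 6.64, SE 1.27, from limma with adjusted p = 0.000712). Its reads were 270, 77 and 4 and then 1572, 2058 and 3006, so that control 1 and 2 had like FPKM and unlike reads. It did not pass in limma without control 1 or without any 1 of the treated libraries, nor in DESeq2 (log2 fold change 4.08, adjusted p = 0.133). It passed in edgeR on the same reads (log2 fold change 4.45, adjusted p = 4.09e-20). Psmd14 and Usp14, both enzymes that remove ubiquitin at the regulatory particle, were the genes of their lists with the smallest p. The lists were chosen with earlier results known, and Psmd14 did not pass. These ranks therefore do not show a change shared by such enzymes. The third enzyme that removes ubiquitin there, Uchl5, held reads in control 3 and tunicamycin 1 alone (11.7 and 21.3 FPKM).

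Other partners did not pass. In FPKM the groups did not overlap for 3 of the 29 (Usp14 and Ubqln1 higher, Ubqln4 lower, the last with overlapping reads), beside 5.74% of all genes tested. Pomp, the maturation factor of the core, lay at 0, 138 and 0 FPKM in control libraries and 55.7, 16.8 and 149 with tunicamycin (log2 fold change 3.36, SE 1.75, from limma with adjusted p = 0.852). Ubqln1, a shuttle that brings ubiquitinated proteins to the proteasome, lay at 0, 4.89 and 0 FPKM in control libraries and 15, 19.3 and 19.4 with tunicamycin, without overlap. The ATPase Vcp, which pulls proteins out of the ER membrane, lay at 40.7, 43.3 and 53.1 FPKM and then at 23.2, 241 and 77.1. Its cofactor Nploc4 lay at 5.14, 20.1 and 0.266 FPKM and then at 14.2, 67.3 and 157. Both had overlapping groups. Nfe2l1 lay at 129, 19.4 and 8.73 FPKM in control libraries and 27.3, 73.6 and 73.3 with tunicamycin (log2 fold change 0.87, SE 1.39, from limma with adjusted p = 0.890), with 263 reads in control libraries and 526 with tunicamycin. Uba1, the main enzyme that activates ubiquitin, lay at 155, 70.7 and 73.9 FPKM and then at 25.2, 119 and 64.9.

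Genes that encode ubiquitin also varied within groups. Rps27a, which encodes ubiquitin fused to a ribosomal protein, lay at 0, 60.0 and 8.01 FPKM in control libraries and 42.2, 0 and 0 with tunicamycin. The polyubiquitin gene Ubb lay at 0.799, 24.1 and 150.03 FPKM in control libraries and 58.1, 0.773 and 61.5 with tunicamycin. Both had overlapping groups and did not pass in limma.

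Positions were taken from GENCODE M21 on mm10 for all 50 proteasome genes. They lie on 16 chromosomes, 10 of them on chromosome 11. Neighbouring genes within 50000 bases form 3 pairs: Psmb5 and Psmb11 (chromosome 14), Psme1 and Psme2 (chromosome 14, 5912 bases apart) and Psmb9 and Psmb8 (chromosome 17). For 12 genes the deposited locus was over 2 times as long as the annotated gene, Psmd1, Psmd4, Psmb7, Psme1 and the 3 immunoproteasome subunits among them, so that overlapping or joined genes may share their reads. Pseudogenes of at least 95% identity exist for 8 genes (Psma3, Psma4, Psma5, Psmb3, Psmb5, Psmc1, Psmd2 and Psmd11), and their values are uncertain for this reason. FPKM and reads were not in fixed proportion either. Of 33 genes with at least 5 reads in 2 or more libraries, 20 differed over 1.5-fold between libraries in the ratio of their share of reads to FPKM, and Psme4 differed most, 8.51-fold.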

How the data were processed

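Per the submitters' processing notes and the design text, reads were trimmed with cutadapt 1.9.3, aligned to mm10 with HISAT2 2.0.4, and summarised with Cuffdiff (version not stated in these sources) under an Ensembl annotation. Deposited by the authors were FPKM and an estimated count per gene and library for 22564 genes; 1 emptied line was not analysed here. Values above 0 in the deposited count columns were whole multiples of 1 step per library for 97.2% to 98.0% (within 0.01), and were divided by it and rounded to whole reads, 541022 to 661145 per library.

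Groups were compared with limma 3.58.1 (R 4.3.3; variance trend, group as the only term, all 6 libraries) on log2(FPKM + 1) over 7696 genes whose mean FPKM reached 1, with Benjamini-Hochberg adjustment over all of them, 2-sided. Its variance prior had infinite degrees of freedom, so each SE came from the trend and a gene's own spread had no weight. edgeR 4.0.16 (quasi-likelihood) and DESeq2 1.42.0 (poscounts) on whole reads were alternatives. All 3 were run on simulated counts, drawn without the gaps between replicates seen here and with a fixed FPKM per read for each gene. That run therefore does not show how they perform on libraries like these. Genes named with all values were those above 0 in every library, those without overlap, the 6 with the smallest p, the 2 most abundant of each subcomplex and the catalytic subunits, and of the partners Usp14, Pomp, Nfe2l1, Vcp, Uba1, the ubiquitin genes and the 4 with the smallest p; others named with values were chosen after these were seen. Some genes that this rule names are not reported here. Members and lists were chosen with earlier results of these data known. Pseudogene copies were sought with blastn among GENCODE M21 transcripts.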

Additional observations from a re-analysis of the deposited data

How the results depend on the processing

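No proteasome gene was called under any alternative run, although DESeq2 gave 11 of the 40 no adjusted p. The count over all genes was 5, and it was 0 with no filter, 2 at a mean FPKM of at least 5, 0 without the variance trend, 3 in edgeR, 34 in DESeq2 (16 higher, 18 lower) and 0 to 7 with 1 library left out. With the replicate block 0 genes were called over all genes, among the proteasome genes and among the partners (219 genes at an unadjusted p under 0.05). The replicate numbers are not a pairing in the labels, and the correlation of same-numbered libraries' deviations was -0.00934, -0.0140 and 0.00231. Usp14, the called partner, was lost with no filter, without the trend, in DESeq2 and without control 1, tunicamycin 1, 2 or 3 (0 partners called in each; 0 to 1 with 1 library left out).

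Subcomplex medians moved more than the spread between libraries for the lid (1.83 at a pseudocount of 0.1, -0.50 in edgeR, -0.46 in DESeq2, 0.034 to 1.63 with 1 library left out), the activators (1.45 at a pseudocount of 0.1; -0.63 to 0.89), the assembly factors (7.02 in edgeR, 6.23 in DESeq2; -1.11 to 2.5) and the beta subunits (-2.62 to 0.50). With 1 library left out the alpha subunits' median ran from -1.195 to 0.10 and that of the ATPases from -1.17 to 0.96. The median over the 40 genes was -0.64 to 0.61 with 1 library left out. Single genes whose log2 fold change turned sign in edgeR and DESeq2 included Psma7 (0.25, 0.11), Psmb5 (-0.18, -0.21), Psmc3 (0.65, 0.65) and Psmd3 (-1.31, -1.73). Psmc1 (0.72, 0.20), Psmc2 (0.44, 0.16), Psmd4 (-0.57, -0.47), Psmd7 (-0.50, -0.46) and Psme4 (-0.06, -0.34) did so too. With 1 library left out the log2 fold change of Psma6 ran from -2.81 to 1.05, Psmb5 from -1.34 to 1.93, Psmb6 from -1.89 to 2.60, Psmb7 from -3.07 to 0.30, Psmc3 from -3.13 to 0.051, Psmc4 from -2.36 to 1.9, Psmd1 from -2.11 to 0.14, Psmd3 from -1.27 to 2.34 and Psme1 from -0.22 to 3.88. Psmd14 stayed between 4.69 and 5.75, but its controls were all at 0, so leaving out a control could not move it. Its log2 fold change was 8.55 at a pseudocount of 0.1, 9.25 in edgeR and 8.67 in DESeq2. The cause of these changes was not tested. Of the 40 tested genes 90.0%, and of all tested 85.5%, were at 0 in at least 1 library, often beside a replicate with at least 50 reads.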
